A study of Homo sapiens with 9 samples.

Results

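The proteasome genes described here are the 48 genes of the screen whose symbol is PSM, a letter between A and G, and a number. They are 48 of the 19114 genes that the guide library targets, and all 48 had enough guides to be scored. By role they fall into 8 alpha ring genes, 7 beta ring genes, 4 beta genes of the immune and thymus proteasome, 6 ATPase genes, 3 other genes of the base, 8 lid genes, 7 assembly factors, and 5 activators or inhibitors. The cells were HEL, an erythroleukemia line of human origin whose JAK2 is mutated, and HEL cells that carry Cas9 were infected with the pooled Brunello knockout library. Guide DNA was sequenced from 4 libraries after 12 days under 200 nM ruxolitinib (RUX), an inhibitor of the JAK2 kinase, from 4 libraries after 12 days under the solvent DMSO, and from 1 library at day 0. All 9 libraries thus share the cell line, Cas9 and the guide pool, and differ in time and drug. A single cell line was screened, and the labels do not say whether libraries of a condition came from separate cultures, so that p-values measure the spread between these libraries, which may be technical. Guide DNA holds no RNA level, and the identity of the cells was therefore not checked by markers.

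The proteasome is the barrel-shaped protease that degrades proteins tagged with ubiquitin. Its 20S core is a stack of 4 rings, with outer rings of alpha subunits that gate the entrance and inner rings of beta subunits, some of which cut the substrate. The 19S cap binds ubiquitin chains, removes them, and unfolds the substrate with a ring of ATPases before feeding it into the core. Nearly all of these subunits are encoded by a single gene and are needed by dividing cells in general, whereas the immune subunits replace the standard cutting subunits in immune cells or after interferon. Among blood cancers, multiple myeloma is the classic setting for proteasome inhibitor drugs, which bind the cutting subunit encoded by PSMB5.

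In a pooled knockout screen, a guide is lost from the pool when the cells that carry it stop dividing or die. Each library was scaled on the non-targeting guides, and the natural log of a guide's day 12 value over its day 0 value was taken, with 5 added to both. These guide scores were averaged per gene to give the gene's score in that library. A score of 0 means no change relative to those control guides, and a score below −0.5 was counted as a dependency. The study applies that threshold to dependency scores that were calculated in another way. The 9 libraries held between 19631338 and 26611323 reads on guides. The 192 guides of the proteasome genes had a median of 227.5 reads at day 0, close to the median of 235 reads over all guides. The lowest had 0 reads and was left out, which left 191 guides. Every score of both conditions was taken against the same single day 0 library, whose own error is unknown and was assumed to equal that of the other libraries. DMSO replicate 3 was noisier than the rest, with an SD of 0.459 over the control guides, against 0.264 to 0.302 in the other 7 day 12 libraries.

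Proteasome genes were depleted in both conditions. Under RUX, 18 of 48 had a score below −0.5 (37.5%, against 4.63% of all 19112 genes scored), and under DMSO 17 of 48 did (35.4%, against 4.32% of all genes). In both conditions 16 members were below −0.5, against 3.12% of all genes. The median member scored −0.39 under RUX and −0.34 under DMSO, and the median gene −0.095 under RUX and −0.085 under DMSO. Scaling libraries over all guides moved the median gene to −0.016 under RUX and −0.020 under DMSO, and the median member to −0.31 under RUX and −0.28 under DMSO. Tested with limma against day 0, and adjusted over all genes by Benjamini-Hochberg, 6 members fell under RUX (12.5%, against 0.544% of all genes) and 3 fell under DMSO (6.25%, against 0.356%). No member rose in either condition by limma, edgeR or DESeq2, also at an unadjusted p under 0.05 (0 of 48 each). At the adjusted threshold limma called 0 of all 19112 genes higher in either condition, so its count does not set the members apart. For the other counts of rises, the share over all genes is not given here. By limma at an unadjusted p under 0.05, 23 members were lower under RUX (47.9%, against 8.29% of all genes) and 21 under DMSO (43.8%, against 7.81%). Both counts of calls depended on how the scores were built. With each gene scored without its farthest guide, limma called 0 members in either condition. The share over all genes in that setting is not given here, so this count has no background. On all guides, edgeR called 6 under RUX (against 0.942% of all genes) and 4 under DMSO (0.539%), and DESeq2 called 6 under RUX (1.21%) and 5 under DMSO (0.853%). Of limma's 6 calls under RUX, edgeR and DESeq2 shared PSMA6, PSMB4, PSMB5 and PSMG3. Neither tool called PSMA7 or PSMD6, so their counts of 6 include other members. Membership below −0.5 also changed without the farthest guide. Under RUX 12 of the 18 members were still below −0.5, PSMA2, PSMB7, PSMB1, PSMC4, PSMD14 and PSMG2 were not, and PSMA5, PSMB8, PSMC2, PSMD4 and PSMG4 were added. Under DMSO 9 of the 17 were still below −0.5 and 3 were added.

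**Figure D1:**
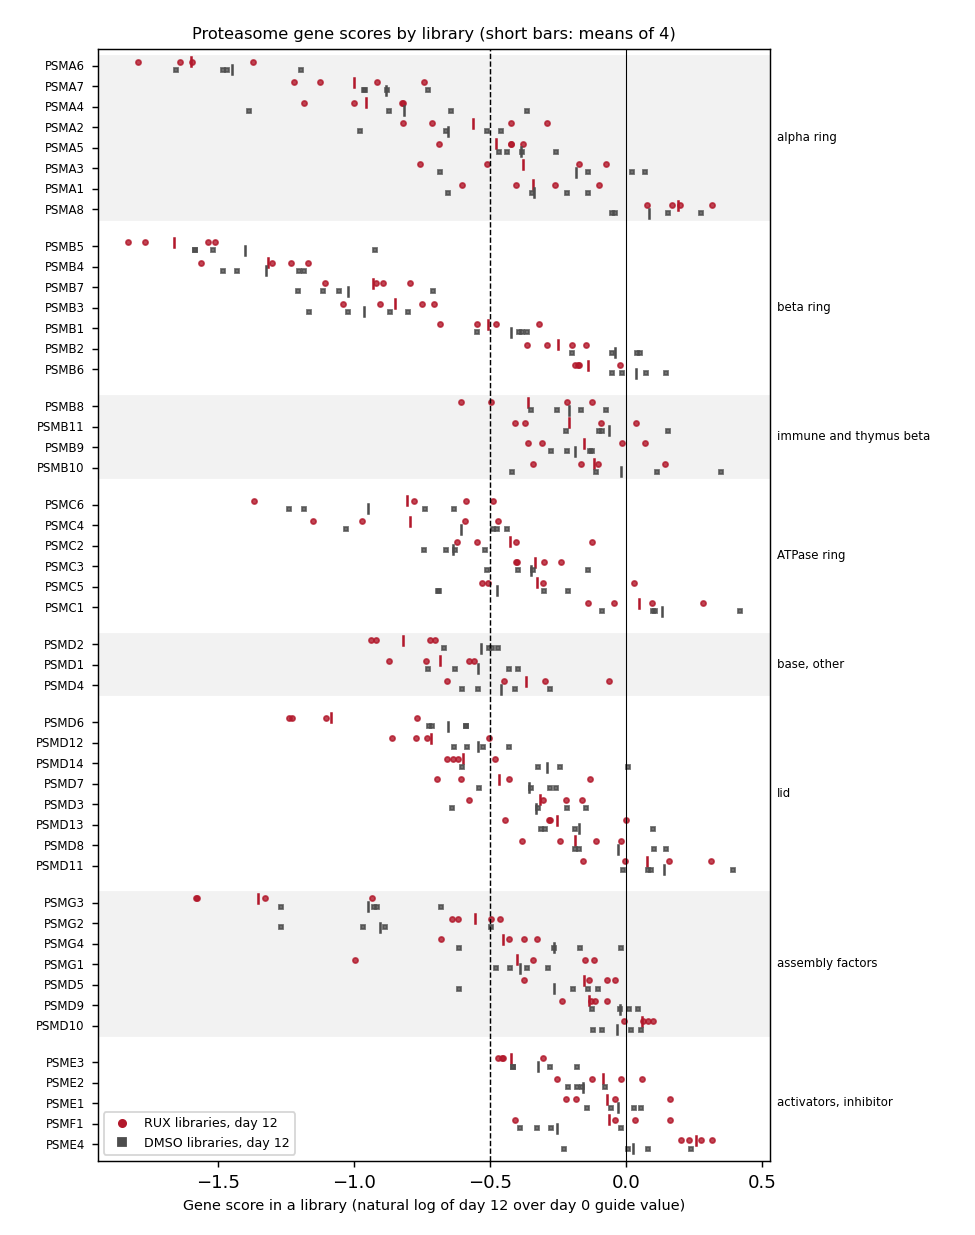
Score of each of the 48 proteasome genes (natural log, horizontal axis) in each of the 4 RUX libraries (red circles, upper row of a gene) and the 4 DMSO libraries (grey squares, lower row), with the mean of 4 as a short bar, the dependency threshold of −0.5 as a dashed line, and genes grouped by role. PSMB5 and PSMA6 lie farthest to the left, while PSMA8, PSMC1 and PSMD11 lie near or above 0.

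Most of the depleted members were standard subunits of the particle. Of the 31 genes for constitutive subunits of core and cap, 16 were below −0.5 under RUX and 15 under DMSO, with medians of −0.51 under RUX and −0.47 under DMSO. Of the other 17 members, 2 were below −0.5 in each condition, both of them assembly factors, and the medians were −0.15 under RUX and −0.19 under DMSO. Within the standard particle, the 14 core genes had medians of −0.70 under RUX and −0.73 under DMSO, with 9 genes below −0.5 under RUX and 8 under DMSO. The 17 cap genes had medians of −0.42 under RUX and −0.46 under DMSO, with 7 genes below −0.5 in each condition. These medians describe the groups and were not tested against each other.

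**Figure D2:**
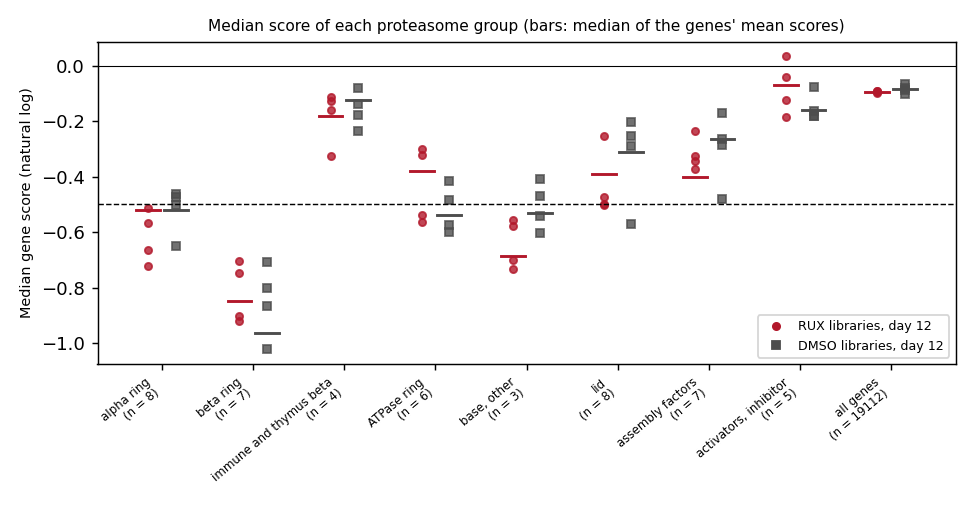
Median score (natural log, vertical axis) of each group of proteasome genes and of all genes in each RUX library (red circles, left) and each DMSO library (grey squares, right). Bars show the median of the genes' mean scores, which can lie outside the library medians, and the beta ring has the lowest bars, at −0.85 under RUX and −0.96 under DMSO.

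Alpha ring subunits form the gate of the core, and 4 of their 8 genes were below −0.5 in each condition. PSMA6 was the lowest of them under RUX, with scores of −1.59, −1.79, −1.64 and −1.37 in the 4 RUX libraries and −1.48, −1.19, −1.65 and −1.47 in the 4 DMSO libraries. The 2 conditions overlapped, and the mean score was −1.60 ± 0.17 under RUX (SD, n = 4; limma adjusted p = 0.0074) and −1.45 ± 0.19 under DMSO (adjusted p = 0.013). This left 20.2% of the guide level under RUX and 23.5% under DMSO. The gene lies at chr14:35278633-35317493 on the plus strand (GRCh38). Its guides differed widely, with mean scores of −2.64, −2.45, −0.70 and −0.60 under RUX and −2.90, −1.51, −0.94 and −0.44 under DMSO. The strongest of them had values of 0.93, 11.0, 0.00 and 4.20 in the RUX libraries and 0.00, 5.39, 0.00 and 0.87 in the DMSO libraries, against 109 at day 0, so that it was nearly gone in all 8 day 12 libraries.

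PSMA7, at chr20:62136733-62143440 on the minus strand, scored −1.22, −1.12, −0.91 and −0.74 in the RUX libraries and −0.88, −0.96, −0.73 and −0.96 in the DMSO libraries. Its mean was −1.0 ± 0.21 under RUX (adjusted p = 0.045) and −0.88 ± 0.11 under DMSO (adjusted p = 0.087). The RUX call was the least stable of all calls on members and was lost in 17 of 22 alternative analyses, among them those without DMSO replicate 1, 2 or 4 (adjusted p 0.052 to 0.062) or without RUX replicate 1, 2 or 3 (0.072 to 0.092). Its 2 strong guides had 46 and 69 reads at day 0, and with guides of a day 0 value of at least 100 alone PSMA7 scored −0.15 under RUX (adjusted p = 0.82) and −0.15 under DMSO. Only 2 of its 4 guides were below −0.5, at −2.22 and −1.48 under RUX and −2.28 and −0.93 under DMSO, while the other guides scored −0.16 and −0.14 under RUX and −0.28 and −0.03 under DMSO. PSMA4 had means of −0.96 ± 0.17 under RUX and −0.82 ± 0.43 under DMSO, and its guides split in the same manner, with 2 guides at −1.85 and −1.28 and 2 at −0.36 and −0.33 under RUX. PSMA2 averaged −0.56 ± 0.25 under RUX and −0.65 ± 0.23 under DMSO, with guides at −1.32, −1.16, −0.07 and 0.30 under RUX. PSMA5 (−0.48 under RUX, −0.39 under DMSO), PSMA3 (−0.38 under RUX, −0.18 under DMSO) and PSMA1 (−0.34 in both conditions) stayed above −0.5. In PSMA1 a guide at −1.12 under RUX stood beside guides at −0.47, 0.05 and 0.17, and in PSMA5 the guides ran between −0.95 and 0.14.

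The beta ring had the lowest median of the 8 groups, and 5 of its 7 genes were below −0.5 under RUX and 4 under DMSO. PSMB5 encodes the subunit with chymotrypsin-like activity, the target of proteasome inhibitor drugs. It scored −1.77, −1.54, −1.51 and −1.83 in the RUX libraries and −0.92, −1.52, −1.58 and −1.58 in the DMSO libraries, where replicate 1 stood above the other 3. The mean was −1.66 ± 0.16 under RUX (adjusted p = 0.0090), the lowest of the 48 members, and −1.40 ± 0.32 under DMSO (adjusted p = 0.029). The DMSO call was lost without DMSO replicate 3 (−1.34, adjusted p = 0.065) and without DMSO replicate 4 (−1.34, adjusted p = 0.058), and in 9 of 22 alternatives in all. The gene lies at chr14:23016543-23035230 on the minus strand. All 4 of its guides were below −0.5 under RUX, at −2.87, −2.11, −1.04 and −0.62, and under DMSO they scored −3.18, −1.46, −0.46 and −0.50. The strongest guide had values of 12.1, 20.4, 19.7 and 5.25 under RUX and 36.3, 3.60, 0.87 and 10.4 under DMSO, against 316 at day 0.

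PSMB4, a beta subunit without cutting activity, scored −1.17, −1.56, −1.23 and −1.30 in the RUX libraries and −1.20, −1.48, −1.43 and −1.18 in the DMSO libraries. The conditions lay on top of each other, at −1.31 ± 0.17 under RUX (adjusted p = 0.012) and −1.32 ± 0.15 under DMSO (adjusted p = 0.015). PSMB4 lies at chr1:151399560-151401937 on the plus strand, and was the only member with all 4 guides below −0.5 in both conditions, at −2.42, −1.45, −0.82 and −0.57 under RUX and −2.60, −1.05, −0.87 and −0.78 under DMSO. PSMB7, the trypsin-like subunit, and PSMB3, which does not cut, were also low. PSMB7 averaged −0.93 ± 0.13 under RUX and −1.02 ± 0.22 under DMSO, and PSMB3 averaged −0.85 ± 0.15 under RUX and −0.96 ± 0.16 under DMSO. PSMB3 had guides at −1.82, −0.75, −0.52 and −0.30 under RUX. PSMB1 averaged −0.51 ± 0.15 under RUX and −0.42 ± 0.08 under DMSO, and a single guide at −1.60 under RUX stood apart from guides at −0.42, −0.29 and 0.28.

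Not every standard beta subunit was depleted. PSMB6, the caspase-like cutting subunit, scored −0.17, −0.19, −0.17 and −0.02 in the RUX libraries and −0.05, −0.01, 0.07 and 0.15 in the DMSO libraries, close to 0 throughout. Its guides scored −0.91, −0.17, 0.20 and 0.32 under RUX and −0.34, −0.02, 0.19 and 0.33 under DMSO, so that 1 guide of 4 was below −0.5 under RUX and none under DMSO. PSMB2, another beta subunit without cutting activity, averaged −0.25 ± 0.10 under RUX and −0.04 ± 0.12 under DMSO, with guides at −0.75, −0.52, −0.15 and 0.42 under RUX.

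The immune subunits PSMB8, PSMB9 and PSMB10 take the places of PSMB5, PSMB6 and PSMB7 in the immunoproteasome, PSMB11 takes that of PSMB5 in the thymus, and PSMA8 that of PSMA7 in the testis. None of these 5 replacing subunits was below −0.5 in either condition with all guides, although PSMB8 scored −0.56 under RUX and −0.34 under DMSO without its farthest guide. PSMB8 scored −0.50, −0.60, −0.13 and −0.22 in the RUX libraries and −0.17, −0.25, −0.07 and −0.35 in the DMSO libraries, all above every library of PSMB5. Its guides scored −0.78, −0.71, −0.17 and 0.22 under RUX and −0.47, −0.45, −0.09 and 0.17 under DMSO. PSMB11 averaged −0.21 ± 0.22 under RUX and −0.06 ± 0.16 under DMSO, with library scores of 0.04, −0.09, −0.41 and −0.37 under RUX and −0.10, −0.22, −0.09 and 0.15 under DMSO. Its guides scored −0.56, −0.36, −0.26 and 0.35 under RUX and −0.32, −0.39, 0.02 and 0.45 under DMSO.

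PSMB10 was scored on 3 guides, since 1 guide had 0 reads at day 0. It scored 0.14, −0.16, −0.10 and −0.34 in the RUX libraries and −0.11, 0.11, 0.35 and −0.42 in the DMSO libraries. Its standard counterpart PSMB7, in contrast, scored −0.79, −0.89, −1.11 and −0.92 in the RUX libraries and −1.05, −1.21, −1.11 and −0.71 in the DMSO libraries, and no library of the pair overlapped. The guides of PSMB10 stayed between −0.28 and 0.04 under RUX and between −0.04 and 0.01 under DMSO, while those of PSMB7 scored −2.42, −0.66, −0.52 and −0.11 under RUX and −2.60, −1.12, −0.37 and 0.02 under DMSO.

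For PSMB9 and PSMB6 there was no such contrast. PSMB9 scored −0.36, −0.01, 0.07 and −0.31 in the RUX libraries and −0.22, −0.13, −0.28 and −0.12 in the DMSO libraries, with means of −0.15 ± 0.21 under RUX and −0.19 ± 0.07 under DMSO. PSMB6 had means of −0.14 ± 0.08 under RUX and 0.04 ± 0.09 under DMSO. The guides of PSMB9 scored −0.45, −0.21, −0.18 and 0.23 under RUX and −0.06, −0.08, −0.41 and −0.20 under DMSO. PSMA8 was the highest alpha ring gene, at 0.17, 0.20, 0.08 and 0.31 in the RUX libraries and 0.28, 0.15, −0.05 and −0.04 in the DMSO libraries, against the negative scores of PSMA7 given above. Its guides scored −0.14, 0.22, 0.33 and 0.36 under RUX and −0.61, 0.04, 0.59 and 0.32 under DMSO.

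Such pairs are similar in sequence, so a guide for one gene could in principle cut the other. In the GENCODE 44 coding sequences, the proteins of PSMA8 and PSMA7 were identical at 83.9% of aligned residues, those of PSMB8 and PSMB5 at 65.3%, PSMB9 and PSMB6 at 59.8%, PSMB10 and PSMB7 at 57.8%, and PSMB11 and PSMB5 at 52.9%. No stretch of 20 coding bases followed by NGG, the form of a Cas9 target, was shared by any of the 1128 pairs among the 48 members. Targets that span an intron or differ by a few bases were not searched. The longest coding stretches shared by PSMB8 with PSMB5 and by PSMA8 with PSMA7 are shown here with their flanks. The identical run is in capitals, in the 5′ to 3′ direction of the coding strand (GRCh38).
PSMB8: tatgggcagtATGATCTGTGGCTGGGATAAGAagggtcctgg
PSMB5: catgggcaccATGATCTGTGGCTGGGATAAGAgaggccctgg
PSMA8: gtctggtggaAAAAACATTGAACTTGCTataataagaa
PSMA7: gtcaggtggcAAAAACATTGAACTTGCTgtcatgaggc
The run is 22 bases in PSMB8, at coding bases 514 to 535, and in PSMB5, at 475 to 496, which is longer than a guide of 20 bases. Where it ends, both genes have 20 coding bases followed by NGG that differ only in the last of the 20 bases. Whether a library guide lies there was not checked. In PSMA8 (616 to 633) and PSMA7 (610 to 627) it is 18 bases, shorter than a guide, although these proteins are the most alike of the 5 pairs.

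The ATPase ring of the base unfolds the substrate, and 2 of its 6 genes were below −0.5 under RUX and 3 under DMSO. PSMC6 was the lowest of its 6 genes, with scores of −0.59, −0.78, −0.49 and −1.36 in the RUX libraries and −1.24, −0.74, −1.18 and −0.63 in the DMSO libraries, a wide and overlapping spread. Its means were −0.80 ± 0.39 under RUX and −0.95 ± 0.31 under DMSO, and neither passed limma's test. Its guides scored −1.52, −1.09, −0.56 and −0.05 under RUX. PSMC4 averaged −0.79 ± 0.32 under RUX and −0.61 ± 0.28 under DMSO, largely from a guide at −2.13 under RUX and −1.59 under DMSO, beside guides at −0.46, −0.36 and −0.23 under RUX. PSMC2 was below −0.5 under DMSO at −0.64 ± 0.09, and above it under RUX at −0.42 ± 0.22. PSMC3 (−0.33 under RUX, −0.35 under DMSO) and PSMC5 (−0.33 under RUX, −0.47 under DMSO) were not below the threshold. The guides of PSMC5 scored −0.66, −0.39, −0.26 and −0.0015 under RUX and −0.88, −0.41, −0.90 and 0.31 under DMSO. With guides of a day 0 value of at least 100 alone, PSMC5 scored −0.20 under RUX and −0.05 under DMSO. Without its farthest guide it scored −0.44 under RUX and −0.73 under DMSO.

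PSMC1 was the exception of the ATPase ring. It scored −0.04, 0.09, −0.14 and 0.28 in the RUX libraries and −0.09, 0.11, 0.42 and 0.10 in the DMSO libraries, on either side of 0. Its guides disagreed, at −0.49, −0.40, 0.40 and 0.69 under RUX and −0.34, −0.34, 0.24 and 0.97 under DMSO. The highest of them had 49 reads at day 0 and the next 79 reads, against 286 and 451 reads for the other guides. With guides of a day 0 value of at least 100 alone, PSMC1 scored −0.44 under RUX.

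The base also holds the scaffold subunits PSMD1 and PSMD2 and the ubiquitin receptor PSMD4. PSMD2, which docks ubiquitin receptors and proteins that carry substrates, scored −0.92, −0.94, −0.72 and −0.70 in the RUX libraries and −0.49, −0.67, −0.50 and −0.47 in the DMSO libraries, and these did not overlap. Its means were −0.82 ± 0.13 under RUX and −0.53 ± 0.09 under DMSO, with guides at −1.45, −0.84, −0.51 and −0.47 under RUX and −1.16, −0.60, −0.14 and −0.23 under DMSO. PSMD1 averaged −0.68 ± 0.15 under RUX and −0.54 ± 0.16 under DMSO. PSMD4 was the highest of the 3, at −0.06, −0.66, −0.30 and −0.45 in the RUX libraries and −0.41, −0.60, −0.54 and −0.28 in the DMSO libraries. None of the 3 passed limma's test against day 0.

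The lid positions the substrate and carries PSMD14, the enzyme that removes ubiquitin chains. Of its 8 genes, 3 were below −0.5 under RUX and 2 under DMSO. PSMD6, a structural lid subunit at chr3:64010550-64024010 on the minus strand, was the lowest, with scores of −1.23, −1.24, −1.10 and −0.77 in the RUX libraries and −0.59, −0.72, −0.71 and −0.59 in the DMSO libraries. Every RUX library lay below every DMSO library. The mean was −1.08 ± 0.22 under RUX, where it fell against day 0 (adjusted p = 0.024), and −0.65 ± 0.07 under DMSO, where it did not pass the test. The RUX call was lost without RUX replicate 1 (−1.04, adjusted p = 0.052), and in 11 of 22 alternatives in all. Its depletion came from 2 guides, at −2.61 and −1.37 under RUX and −1.62 and −0.85 under DMSO, while the other guides scored −0.20 and −0.16 under RUX and −0.22 and 0.07 under DMSO. The strongest guide had values of 10.2, 28.0, 15.0 and 13.7 under RUX and 65.8, 30.6, 75.4 and 43.4 under DMSO, against 277 at day 0, so that RUX libraries held less of it than DMSO libraries.

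Of the 3 lid genes below −0.5 under RUX, PSMD12 had the most even guides, at −0.98, −0.83, −0.64 and −0.41 under RUX and −0.72, −0.68, −0.35 and −0.42 under DMSO, and averaged −0.72 ± 0.15 under RUX and −0.54 ± 0.09 under DMSO. PSMD14 averaged −0.60 ± 0.08 under RUX and −0.29 ± 0.25 under DMSO, but its score rests on 1 guide, at −2.51 under RUX and −1.57 under DMSO. That guide had values of 12.1, 17.0, 10.3 and 7.35 under RUX and 33.4, 37.8, 13.0 and 101 under DMSO, against 197 at day 0. The other 3 guides of PSMD14 scored −0.17, −0.16 and 0.45 under RUX, and without the farthest guide the gene scored 0.04. PSMD7 (−0.47 under RUX, −0.36 under DMSO), PSMD3 (−0.32 under RUX, −0.33 under DMSO), PSMD13 (−0.25 under RUX, −0.17 under DMSO) and PSMD8 (−0.19 under RUX, −0.03 under DMSO) stayed above −0.5, and in PSMD3 a guide at −1.05 under RUX stood beside guides at −0.31, −0.31 and 0.40. PSMD11, a lid subunit next to the ATPase ring, was the highest lid gene, at 0.31, −0.16, 0.00 and 0.16 in the RUX libraries and 0.09, 0.39, 0.08 and −0.01 in the DMSO libraries. Its guides scored −0.35, −0.13, 0.38 and 0.42 under RUX and −0.29, −0.18, 0.25 and 0.78 under DMSO. In the same order they had 417, 297, 76 and 119 reads at day 0. With guides of a day 0 value of at least 100 alone, PSMD11 scored −0.02 under RUX and 0.10 under DMSO.

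Assembly factors are chaperones that build the particle and then leave it or are degraded. PSMG3, which works with PSMG4 in early core assembly, scored −1.58, −1.57, −0.93 and −1.33 in the RUX libraries and −0.68, −0.93, −0.91 and −1.27 in the DMSO libraries, which overlapped. Its mean of −1.35 ± 0.30 under RUX was past limma's threshold (adjusted p = 0.023), and its mean of −0.95 ± 0.24 under DMSO was not. The RUX call was lost in 8 of 22 alternatives, with the 3 other scalings among them. The gene lies at chr7:1567332-1571005 on the minus strand. All 4 guides were below −0.5 under RUX, at −3.17, −0.94, −0.70 and −0.60, the first being the lowest of all 191 member guides in that condition. Under DMSO they scored −2.38, −0.73, −0.49 and −0.19. PSMG4 averaged −0.45 ± 0.16 under RUX and −0.27 ± 0.25 under DMSO.

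PSMG1 and PSMG2 form the other early chaperone pair. PSMG2 averaged −0.55 ± 0.09 under RUX and −0.90 ± 0.32 under DMSO, with guides at −0.87, −0.78, −0.35 and −0.21 under RUX and −1.50, −0.97, −0.21 and −0.94 under DMSO. PSMG1 averaged −0.40 ± 0.41 under RUX and −0.39 ± 0.08 under DMSO, with RUX replicate 2 far below the rest, at −0.99, where the other RUX libraries scored −0.34, −0.15 and −0.12. Its guides scored −1.03, −0.86, 0.08 and 0.20 under RUX. The base chaperones were close to 0. PSMD5 scored −0.15 under RUX and −0.26 under DMSO, PSMD9 scored −0.14 under RUX and −0.02 under DMSO, and PSMD10 was the highest of the group, at 0.06, 0.08, 0.10 and −0.01 in the RUX libraries and −0.12, −0.09, 0.06 and 0.02 in the DMSO libraries.

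Activators open the core in place of the 19S cap, and PSMF1 encodes an inhibitor that binds the core. None of these 5 genes was below −0.5. PSME3, a nuclear activator, was the lowest, at −0.45, −0.45, −0.47 and −0.31 in the RUX libraries and −0.28, −0.18, −0.41 and −0.42 in the DMSO libraries, with guides at −1.06, −0.60, −0.09 and 0.06 under RUX. PSME1 and PSME2, which form the interferon-induced activator, scored −0.07 and −0.08 under RUX and −0.03 and −0.16 under DMSO. PSMF1 scored −0.06 under RUX and −0.25 under DMSO. PSME4, the largest activator, had the highest score of all 48 members under RUX, at 0.20, 0.23, 0.28 and 0.32 in the RUX libraries and 0.01, 0.24, −0.23 and 0.08 in the DMSO libraries. Without its farthest guide PSME4 scored 0.098 under RUX and −0.098 under DMSO.

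Guides of one gene agreed poorly, although the guides as a whole were depleted. Under RUX 73 of 191 member guides were below −0.5 (38.2%, against 11.8% of 75434 guides that target any gene and 0.808% of 990 control guides). Under DMSO 62 of 191 were below −0.5 (32.5%, against 11.8% of targeting guides and 3.03% of control guides). All 4 guides were below −0.5 for 4 members under RUX (PSMA6, PSMB5, PSMB4 and PSMG3) and for 1 under DMSO (PSMB4). No guide was below −0.5 for 12 members under RUX and 15 under DMSO. The guides' mean scores spread over more than 1 unit in 23 members under RUX and 21 under DMSO, and most widely under RUX in PSMD14, over 2.96. Guides of a gene share its target and are not replicates of a condition.

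**Figure D3:**
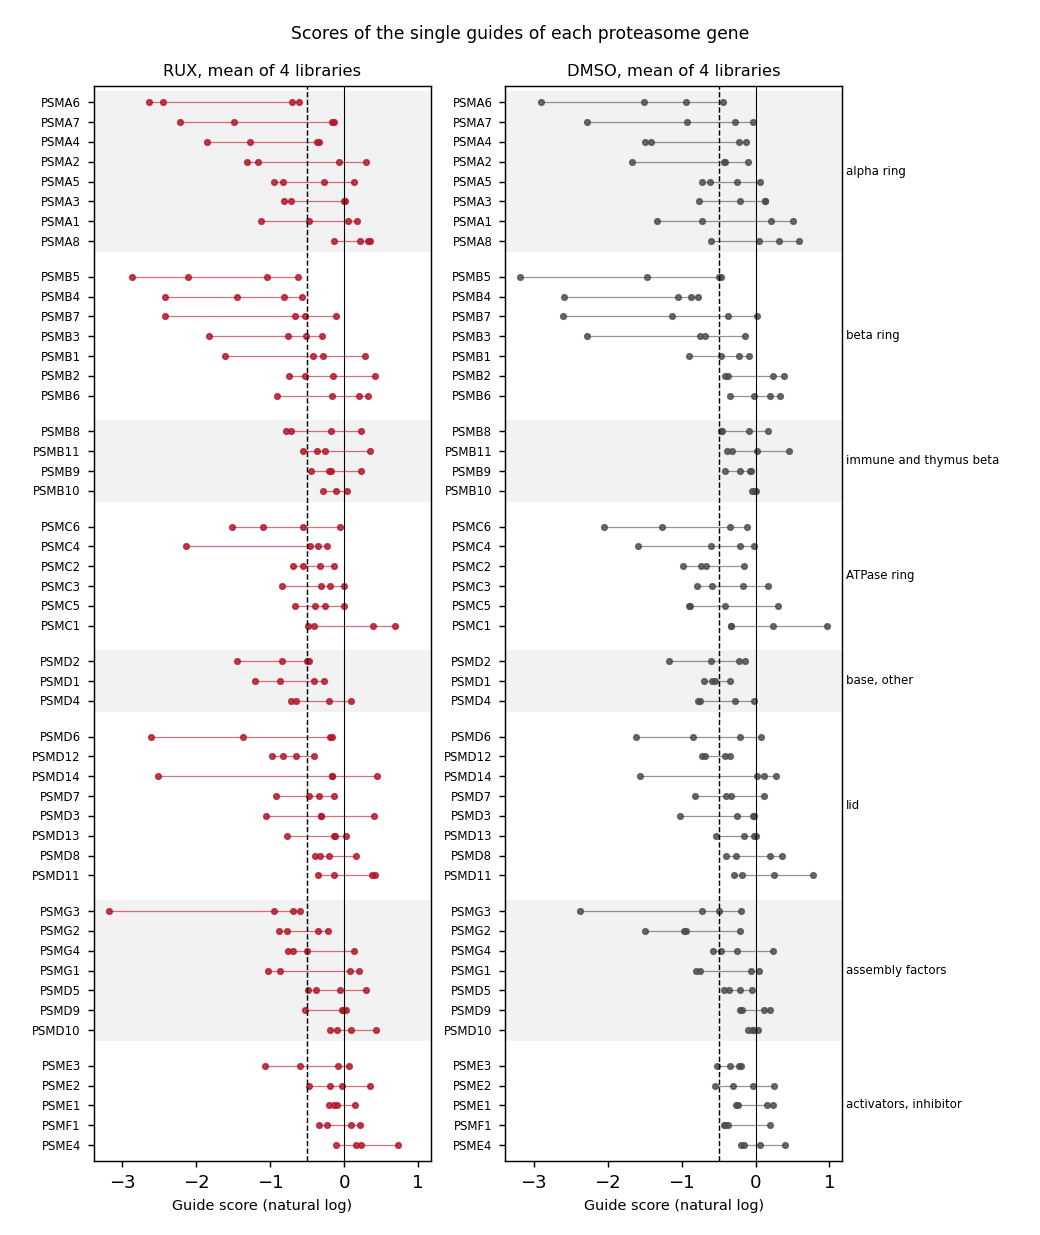
Mean score over 4 libraries (natural log, horizontal axis) of each guide of the 48 proteasome genes under RUX (left, red) and DMSO (right, grey), with a line from the lowest to the highest guide of a gene and the threshold of −0.5 dashed. The 4 guides of PSMB4 all lie left of the threshold in both panels, whereas PSMD14 has 1 guide far to the left and 3 near or above 0.

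The members lay on 17 chromosomes, with 8 on chromosome 14 and 7 on chromosome 17. The members on chromosome 14 had medians of −0.29 under RUX and −0.17 under DMSO and held both PSMB5, the lowest member under RUX, and PSMC1 near 0. Copy number of HEL cells was not used here. When the median of 20 neighbouring genes was subtracted from each score, PSMB5 scored −1.49 and PSMA6 −1.44 under RUX, and the median of all members was −0.28 under RUX and −0.21 under DMSO. Of the 6 calls under RUX, 1 was then left (PSMA6, adjusted p = 0.033), and PSMB5 and PSMB4 had adjusted p-values of 0.053.

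The comparison of RUX with DMSO asks whether a gene's day 12 score differs under the drug. Scores were not corrected for the number of cell divisions in each condition. No member passed the adjusted threshold (0 of 48) by limma, edgeR or DESeq2. Of all 19112 genes, 0 passed by limma (0%), 5 by edgeR and 52 by DESeq2. The median difference, RUX minus DMSO, was −0.085 over the 48 members and −0.011 over all genes. The score was lower under RUX in 30 members (62.5%) and higher in 18, where it was lower in 53.5% of all genes. By limma at an unadjusted p under 0.05, 5 members were lower (10.4%, against 5.33% of all genes) and 2 higher (4.17%, against 3.62% of all genes). The lower ones were PSMD6 (−0.43, 95% interval −0.72 to −0.15), PSMG3 (−0.41, −0.76 to −0.05), PSMD14 (−0.31, −0.57 to −0.04), PSMD2 (−0.29, −0.54 to −0.03) and PSMB2 (−0.21, −0.41 to −0.01). The higher ones were PSMG2 (0.35, 0.04 to 0.66) and PSME4 (0.23, 0.02 to 0.44). Their adjusted p-values lay between 0.43 and 0.55.

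Every RUX library was lower than every DMSO library in 2 members, PSMD6 and PSMD2, which is 4.17% of the members against 2.99% of all genes. No member had every RUX library above every DMSO library (0 of 48, against 1.96% of all genes). For PSMD6 and PSMD2 exact permutation of the 8 libraries (two-sided) gave p = 0.029, the smallest it can give. Any gene whose libraries do not overlap gets this p, so it adds no support to the 2 genes. For the most depleted beta subunits, the 95% interval of the difference ran from −0.62 to 0.10 in PSMB5 and from −0.30 to 0.32 in PSMB4.

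**Figure D4:**
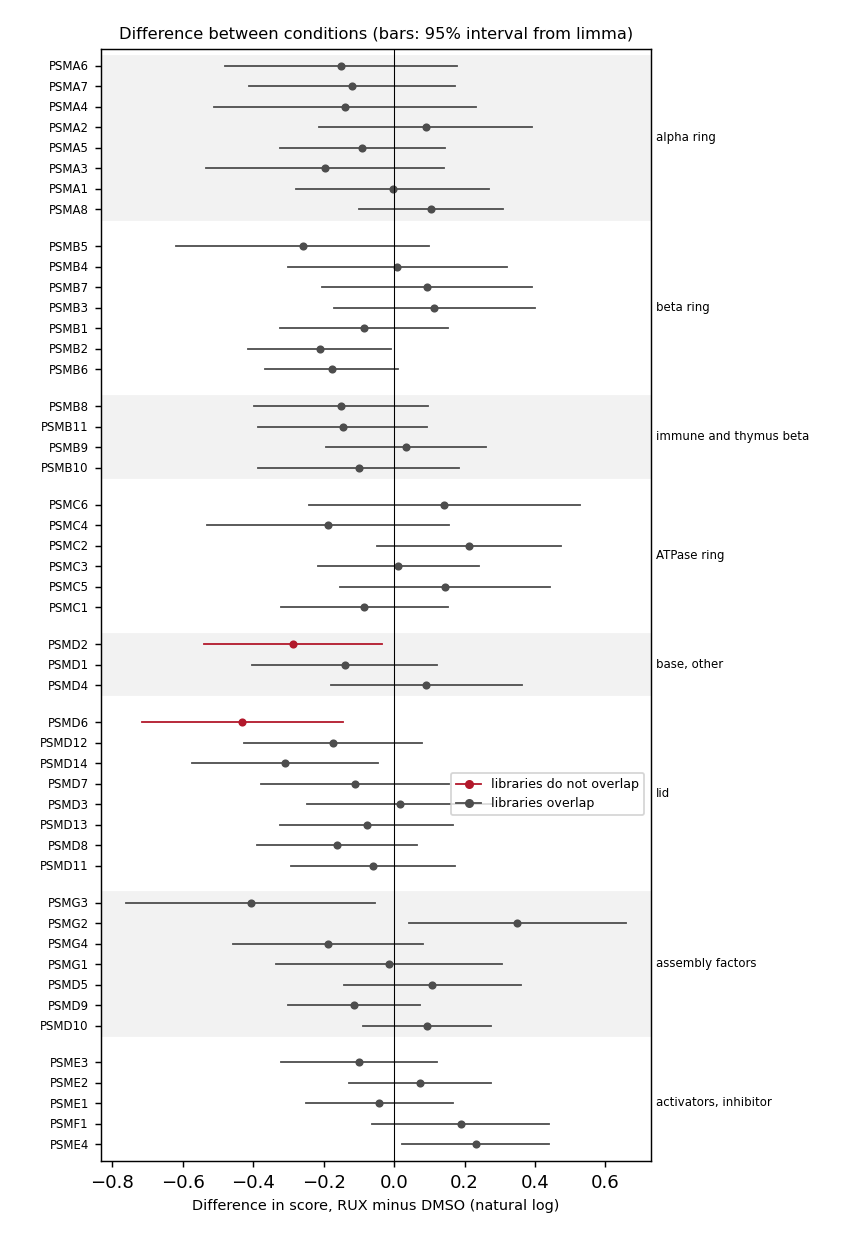
Difference in score between RUX and DMSO (natural log, horizontal axis) for each of the 48 proteasome genes, with its 95% interval from limma. The 2 genes in red, PSMD6 at −0.43 and PSMD2 at −0.29, are those whose 4 RUX libraries all lie below the 4 DMSO libraries, and most other intervals include 0.

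A list of 36 further genes of the pathway, none with a PSM symbol, was scored in the same way. It holds subunits and assembly factors with other names, proteins that bind the particle, shuttle receptors, the VCP unfoldase and its cofactors, ubiquitin genes with their activating enzymes, and regulators of proteasome genes. Of these 36 genes, 6 were below −0.5 under RUX (16.7%, against 4.63% of all genes) and 4 under DMSO (11.1%, against 4.32%), with medians of −0.20 under RUX and −0.22 under DMSO. By limma's test 2 fell under RUX (5.56%, against 0.544% of all genes) and 0 under DMSO (0%, against 0.356%). Under DMSO, 7 were lower by limma at an unadjusted p under 0.05 (19.4%, against 7.81% of all genes), and edgeR called 2 (against 0.539% of all genes) and DESeq2 3 (against 0.853%). VCP, the ATPase that extracts ubiquitin-tagged proteins from complexes, scored −1.01, −0.90, −0.87 and −1.10 in the RUX libraries and −0.81, −0.93, −1.0 and −0.71 in the DMSO libraries. Its mean was −0.97 ± 0.10 under RUX (adjusted p = 0.036) and −0.86 ± 0.13 under DMSO (adjusted p = 0.072). UBA1, the main enzyme that activates ubiquitin, averaged −0.88 ± 0.09 under RUX (adjusted p = 0.048) and −0.67 ± 0.13 under DMSO. Without its farthest guide UBA1 scored −0.34 under RUX (adjusted p = 0.69) and −0.14 under DMSO. The RUX call of UBA1 was lost when any 1 of the 8 day 12 libraries was left out (adjusted p 0.051 to 0.10), and that of VCP without DMSO replicate 1 or any RUX replicate (0.050 to 0.074). AKIRIN2, which brings proteasomes into the nucleus, averaged −0.95 ± 0.29 under RUX and −0.84 ± 0.08 under DMSO. UFD1L, a cofactor of VCP, scored −0.70 under RUX and −0.46 under DMSO, and the shuttle factor UBQLN2 −0.54 under RUX and −0.34 under DMSO.

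Among partners that belong to the particle or build it, none was below −0.5. SHFM1 (SEM1), a small lid subunit, scored −0.45 under RUX and −0.48 under DMSO, and POMP, the chaperone of core maturation, −0.32 in both. ADRM1, a ubiquitin receptor of the base, scored −0.19 under RUX and −0.07 under DMSO. NFE2L1, the transcription factor that raises proteasome genes when the proteasome is impaired, scored −0.20 under RUX and −0.33 under DMSO, and DDI2, the protease that activates it, −0.02 under RUX and 0.03 under DMSO. NGLY1, which removes sugars from the NFE2L1 protein, was lower in every RUX library (−0.63, −0.44, −0.54 and −0.24) than in any DMSO library (−0.17, −0.14, 0.02 and 0.09). UBA6, the second ubiquitin-activating enzyme, was higher in every RUX library (0.24, 0.01, 0.31 and 0.17) than in any DMSO library (−0.19, −0.32, −0.23 and −0.25). They were the only partner genes whose libraries did not overlap, 1 in each direction (2.78% of 36), close to the 2.99% of all genes that were lower and the 1.96% that were higher without overlap. Neither difference passed limma's test, with adjusted p-values of 0.40 for NGLY1 and 0.27 for UBA6, although UBA6 passed by DESeq2 (adjusted p = 0.019). By limma at an unadjusted p under 0.05, 1 partner gene was lower under RUX than DMSO (2.78%, against 5.33% of all genes). In the same test 3 were higher (8.33%, against 3.62% of all genes). The genes SHFM1, POMP, ADRM1, NFE2L1, DDI2, NGLY1 and UBA6 were named after their values were seen.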

How the data were processed

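The deposited table gave 1 value per guide and library. The authors counted guide reads with MAGeCK and scaled each library, so the unit is a normalised signal per guide. In every library the deposited signal values were whole reads times 1 factor (100% of values within 0.001 of a whole read), and these reads were used by edgeR and DESeq2 only. The authors' own gene scores and a HEL copy number profile were not used here.

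Each library was rescaled on its non-targeting guides, as the authors' methods name control guides. The factor was the median ratio of these guides to their geometric mean over all libraries, set relative to the factor of day 0. Control guides absent from any library were left out of that ratio. Guides under a day 0 value of 30 were left out, then genes with fewer than 2 guides, which left 19112 genes. Scores were compared with limma 3.58.1 in R 4.3.3 (lmFit, eBayes with a trend, 1 mean per condition, no block), with Benjamini-Hochberg adjustment over all genes and a threshold of 0.05. Single genes were compared between RUX and DMSO by exact permutation of 4 against 4 libraries. Intervals took limma's standard error and its total degrees of freedom. Depth was 19631338 to 26611323 reads per library, and a guide with few day 0 reads gives an imprecise score.

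Alternatives were libraries scaled over all guides, to their totals or as deposited, a pseudocount of 1 or 20 in place of 5, the day 0 filter dropped or raised to 100, a median in place of the mean of a gene's guides, the farthest guide left out, the median of 20 neighbouring genes subtracted, each day 12 library left out, no trend, a replicate block, and gene sums of reads tested with edgeR 4.0.16 or DESeq2 1.42.0. A limma fit on log levels was added after seeing the data. On simulated data, only the estimated differences between RUX and DMSO were held to a criterion. All guides of a simulated gene had the same effect, unlike the guides here, and the share of false calls is not given. Genes and coding sequences were taken from GENCODE 44 on GRCh38. Libraries were grouped by their labels.

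The members, groups, partner genes and tests were chosen with earlier results of these data known. Every member could be named. Library values were given for the lowest and highest member of each group under RUX, for members past limma's threshold, for members whose conditions did not overlap, and for the replacing pairs. Guide values were given for those pairs, for members whose guides spread over more than 1 in either condition, and for PSMD12. Partner genes were named where below −0.5 or past the threshold, except for a result that is not reported here, and others as said.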

Additional observations from a re-analysis of the deposited data

Results flagged for a closer look

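Among 114 sets of 4 libraries, those of each member's score and of the group medians, 9 had 1 library far from the other 3. Chance gives about 5.7 in a family of this size, so single cases carry little weight.

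Under RUX, PSMA5 scored −0.69 in replicate 3, where the other libraries lay between −0.42 and −0.38, and the lid median was −0.25 in the same replicate, where the others lay between −0.50 and −0.47. In RUX replicate 4, PSMB6 scored −0.0214 beside −0.19 to −0.17, and PSME3 scored −0.31 beside −0.47 to −0.45.

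Under DMSO, PSMB5 scored −0.92 in replicate 1, where the others lay between −1.58 and −1.52. Replicate 2 was lowest for PSMB1, at −0.55 beside −0.39 to −0.36, and for PSMD2, at −0.67 beside −0.50 to −0.47. PSMC4 scored −1.03 in replicate 4 beside −0.49 to −0.44. The median of all 48 members was −0.49 in replicate 3, the library with the noisiest control guides, beside −0.34 to −0.31 in the others.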

How the results depend on the processing

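The counts of members below −0.5 were 14 to 19 under RUX and 12 to 18 under DMSO over all alternatives. With the farthest guide left out, 6 members left and 5 entered under RUX, and 8 left and 3 entered under DMSO. Without DMSO replicate 3 the counts were 18 under RUX and 16 under DMSO. The calls of limma moved too. Under RUX, 6 members fell, against 3 with libraries scaled over all guides, as deposited or to their totals or with a day 0 value of at least 100, 1 with neighbouring genes subtracted, 0 with a pseudocount of 1, the median over guides or the farthest guide left out, 10 with a pseudocount of 20 or log levels fitted, and 11 without the trend. Under DMSO, 3 fell, against 0 with a pseudocount of 1, the median over guides or the farthest guide left out, 1 with a day 0 value of at least 100, 5 by DESeq2, 7 with a pseudocount of 20 or log levels fitted, and 8 without the trend. Over all genes, limma called 104 lower under RUX and 68 under DMSO, where log levels fitted gave 302 under RUX and 220 under DMSO. Shares over all genes under the other limma settings are not given here, so those counts have no background. Leaving out 1 library gave 4 to 6 members under RUX and 2 to 4 under DMSO. The median of all members under RUX, −0.39, became −0.31 over all guides, as deposited or with the farthest guide left out, −0.33 scaled to library totals or with a pseudocount of 20, and −0.28 with neighbours subtracted, where that under DMSO became −0.21. Partner genes that fell under RUX, 2, numbered 0 under the 3 other scalings, a pseudocount of 1, the median over guides, the farthest guide left out or neighbours subtracted, 1 with a day 0 value of at least 100, 0 to 1 with a library left out, and 4 with a pseudocount of 20, no trend, edgeR or DESeq2. Those under DMSO, 0, numbered 2 with a pseudocount of 20, log levels or edgeR, 3 by DESeq2 and 4 without the trend. Between RUX and DMSO no member passed under any alternative run, and among partner genes 1 did, UBA6 by DESeq2 (adjusted p = 0.019). The cause of these shifts was not tested.

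The labels do not say whether RUX and DMSO libraries of the same number share an origin. Deviations of same-numbered libraries correlated between −0.13 and 0.03, which cannot settle this. Of the 4 RUX libraries, 0 correlated best with the DMSO library of its own number. With the replicate block, 0 members and 0 partner genes differed between RUX and DMSO.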
